A study of Mus musculus with 12 samples.

Results

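Potassium channel genes were described in neuroendocrine tumors of transgenic mice that arose at 2 sites, the pancreas and the pituitary gland. The genes are all those whose platform symbol begins with Kcn, together with Abcc8 and Abcc9, which encode the sulfonylurea receptors, and they amounted to 86 of the 18193 genes on the array that carry a single symbol. They were taken by symbol and not by any measured value, and each gene was read from its probe set with the highest mean over the 12 tumors. Of the 86 genes, 38 have 1 probe set and 48 have 2 or more, and 3 are noncoding transcripts (Kcnq1ot1, Kcnmb4os1 and Kcnmb4os2).

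All 12 tumors came from untreated LSL-MYCN;hGFAP-Cre mice of a mixed genetic background, in which Cre under the human GFAP promoter switches on a MYCN transgene in every cell that uses this promoter. Pancreatic tumors numbered 9 (tumors 1 to 5 and 9 to 12), and 3 tumors (6 to 8) carry the label brain and were placed at the pituitary gland by the study, so they are called pituitary tumors here. The labels give no age or sex. Some of the mice in the study bore tumors at both sites, and the labels do not tell which of the 12 tumors share a mouse, so each was treated as independent. No array of normal tissue was analysed here.

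Potassium channels let potassium leave the cell and thereby set the resting membrane potential and end action potentials. In endocrine cells they govern electrical firing and, through calcium entry, hormone release. In pancreatic islet cells the KATP channel, built from a pore subunit of the inward rectifier family and a sulfonylurea receptor, closes when glucose metabolism raises ATP. In the anterior pituitary, A-type and G protein-gated channels limit spontaneous firing of the hormone cells, and the latter open under inhibitory hormones such as dopamine and somatostatin.

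The site labels were set against marker genes. Gcg, the glucagon gene, had log2 signals between 8.85 and 14.41 in the pancreatic tumors and between 5.34 and 6.38 in the pituitary tumors. Gh, the growth hormone gene, lay between 5.63 and 6.27 in the pancreatic tumors and between 14.65 and 14.87 in the pituitary tumors, and 11 of 17 anterior pituitary markers were higher at that site. Glial and neuronal markers were also present in pituitary tumors 6 and 8, and liver transcripts in pancreatic tumor 2, with values given below. Array medians ran from 5.45 to 5.69 on the log2 scale, array means were 5.97 or 5.98 for pancreatic tumors 10 to 12 and 6.06 to 6.10 for the others, and pancreatic tumor 2 correlated with the other pancreatic tumors at r = 0.803 to 0.902 over all probe sets. Tumors were bulk tissue, in which fewer cells of a type and less RNA per cell cannot be told apart.

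Between sites, 17 of the 86 genes differed past the threshold of limma (Benjamini-Hochberg adjusted p under 0.05, all 12 tumors). Signals of 3 of them (Kcnk16, Abcc8 and Kcnmb2) were higher in the pancreatic tumors, which is 3.49% of the potassium channel genes against 1.63% of all genes. Signals of 14 were higher in the pituitary tumors, which is 16.3% against 4.29% of all genes. The 3 genes of the first group encode a sulfonylurea receptor, a background channel and an accessory subunit, while the 14 of the second include channels of 8 families and the accessory subunits Kcnab1 and Kcnab2. The other 69 genes did not pass the test, although 35 of the 86, or 40.7%, had an unadjusted p under 0.05, against 23.5% of all genes. The median difference over the 86 genes was -0.10 on the log2 scale, pancreatic minus pituitary, against 0.04 over all genes. Counts at the pituitary site depended on single tumors, with 7 genes higher there without tumor 6, 5 without tumor 8 and 18 without tumor 7. The share of all genes higher there moved too, to 1.84%, 2.2% and 5.45%, against 4.29% with all tumors. Leaving out pancreatic tumors 10 to 12, which was tried after the data were seen, left 1 gene higher at the pancreatic and 5 at the pituitary site. Over all genes the shares were then 0.698% and 1.64%.

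**Figure D1:**
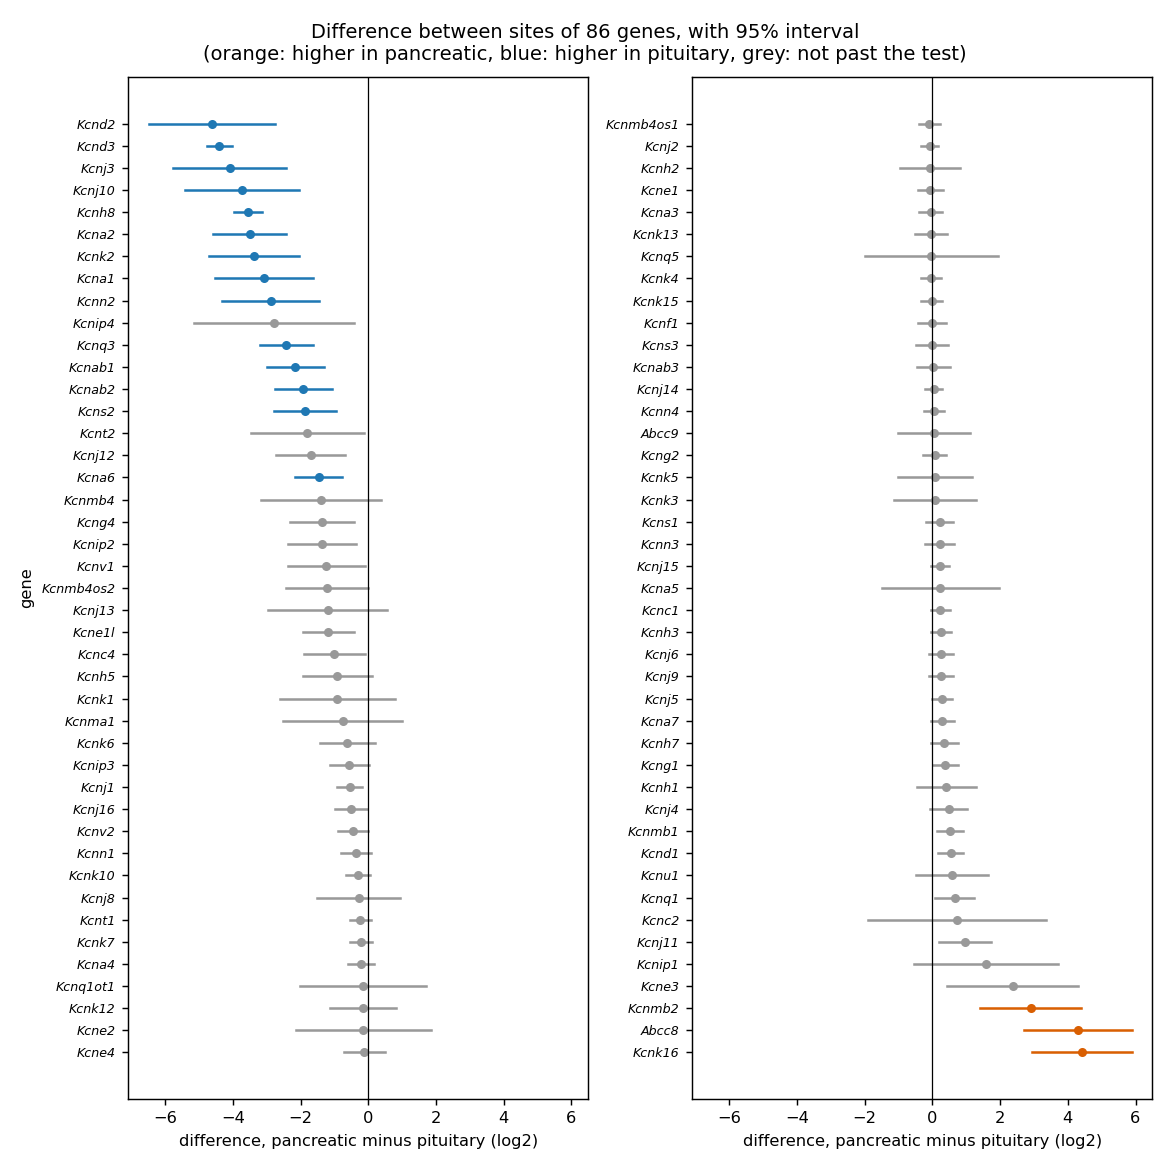
Difference between sites for each of the 86 genes on the log2 scale, pancreatic minus pituitary mean, with its 95% interval, sorted by size over both panels. The 3 orange genes at the lower right are higher in pancreatic tumors and the 14 blue genes are higher in pituitary tumors, with differences from -4.61 for Kcnd2 to 4.41 for Kcnk16, and the 69 grey genes did not pass the test.

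Groups did not overlap, with every tumor of one site above every tumor of the other, for 17 of the 86 genes, or 19.8%, against 9.42% of all genes. In 13 of them the pituitary tumors were higher (15.1%, against 5.21% of all genes) and in 4 the pancreatic tumors (4.65%, a share near the 4.21% of all genes). A median split of each array gives a rough view of which genes were detected, because the deposited values hold no detection calls. By this measure 20 of the 86 genes, or 23.3%, lay above the median of the array in all 12 tumors, against 52.2% of all genes. Signals of 15, or 17.4%, lay at or below it in all 12, against 20.5% of all genes. The array median is not a detection limit, so where 1 site lay at or below it the size of the difference between sites is uncertain.

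Promoter windows are shown for the 2 genes higher in pancreatic tumors that have an entry in the RefSeq table used (Kcnk16 and Kcnmb2) and for the 2 pituitary genes with the smallest p-values (Kcnd3 and Kcnh8), to set genes of opposite direction side by side. Each holds the 250 bases before the gene start in GRCm38.p6, read on the gene's own strand, with CpG dinucleotides in capitals. The windows lie at chr14:20269270-20269519 on the minus strand for Kcnk16, chr3:31902453-31902702 on the plus strand for Kcnmb2, chr3:105451640-105451889 on the plus strand for Kcnd3 and chr17:52602459-52602708 on the plus strand for Kcnh8.
Kcnk16: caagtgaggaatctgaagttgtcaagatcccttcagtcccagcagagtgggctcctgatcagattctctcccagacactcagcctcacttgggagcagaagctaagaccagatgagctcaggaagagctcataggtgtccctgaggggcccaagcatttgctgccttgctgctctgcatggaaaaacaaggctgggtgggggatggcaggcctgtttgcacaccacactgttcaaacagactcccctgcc
Kcnmb2: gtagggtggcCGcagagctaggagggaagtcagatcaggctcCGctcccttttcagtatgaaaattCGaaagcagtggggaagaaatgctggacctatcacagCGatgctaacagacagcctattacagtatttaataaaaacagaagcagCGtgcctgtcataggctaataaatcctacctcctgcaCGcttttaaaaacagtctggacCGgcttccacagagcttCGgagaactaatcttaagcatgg
Kcnd3: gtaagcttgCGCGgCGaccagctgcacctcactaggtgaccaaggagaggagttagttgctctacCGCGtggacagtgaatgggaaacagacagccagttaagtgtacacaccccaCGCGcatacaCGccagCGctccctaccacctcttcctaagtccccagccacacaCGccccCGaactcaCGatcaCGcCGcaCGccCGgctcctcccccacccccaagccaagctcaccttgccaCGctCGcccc
Kcnh8: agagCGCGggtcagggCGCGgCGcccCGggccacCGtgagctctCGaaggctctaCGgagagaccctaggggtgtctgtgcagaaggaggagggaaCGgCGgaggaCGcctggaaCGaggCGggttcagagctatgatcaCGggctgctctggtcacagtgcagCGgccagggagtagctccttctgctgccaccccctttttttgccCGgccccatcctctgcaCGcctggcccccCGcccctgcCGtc

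The Kcnk16 window held 0 CpG at a GC content of 54.8%, as did 7.87% of the 32851 windows in the table. Kcnmb2 held 8 CpG at 47.2% GC, and 59.7% of windows held as few or fewer. Kcnd3 held 18 at 62.8% GC and Kcnh8 held 20 at 68.4% GC, and 80.3% and 83.7% of windows held as few or fewer. The median window held 6. Of the motifs searched on both strands, the E-box CACGTG, a letter string bound by MYC family proteins among others, was found in 5 of 90 windows of the potassium channel genes, or 5.56%, against 6.02% of all windows. Among the 17 genes that passed the test, 12 had windows, and the E-box letters stood in those of 1 of them, Kcnab1. The forkhead string TGTTTAC was in 0 of the 90 windows and in 3.17% of all.

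Abcc8, the regulatory sulfonylurea receptor of the KATP channel in islet endocrine cells, had log2 signals of 8.59 at the lowest, 12.03 at the median and 12.97 at the highest in the 9 pancreatic tumors, and 7.34, 7.58 and 7.37 in pituitary tumors 6, 7 and 8. All pancreatic tumors lay above all pituitary tumors, and pancreatic tumor 2 was the nearest to them. The means were 11.73 ± 1.33 (SD, n = 9) and 7.43 ± 0.13 (SD, n = 3), a difference of 4.30 with a 95% interval of 2.72 to 5.88, or 19.7-fold (limma adjusted p = 0.00549). Its second probe set differed by 5.14 (adjusted p = 0.0125). The call remained without each tumor in turn, and without pancreatic tumors 10 to 12 the difference was 4.26 with an adjusted p of 0.0552.

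Kcnj11 encodes the pore subunit that assembles with the product of Abcc8. Its signals in pancreatic tumors ran from 8.49 through a median of 9.26 to 10.42, and those in pituitary tumors 6, 7 and 8 were 8.44, 8.54 and 8.45. The groups overlapped through pancreatic tumor 2 alone. The difference of 0.97, with a 95% interval of 0.20 to 1.73, did not pass the test over all probe sets (adjusted p = 0.148). A second Kcnj11 probe set differed by 1.16 (adjusted p = 0.0842). Pancreatic tumors 10, 11 and 12 had the highest Kcnj11 signals (10.25, 9.85 and 10.42, against 8.49 to 9.45 in the other 6) and stood highest on the second probe set too, at 6.28, 6.11 and 6.32. These are the tumors whose arrays had the lower mean signal, and the part of the arrays in this result was not tested. Without them the difference was 0.60 (adjusted p = 0.187).

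The other pair of KATP subunits, Abcc9 and Kcnj8, forms the channel of vascular muscle and pericytes. Abcc9 signals ran from 6.32 through a median of 7.42 to 8.54 in pancreatic tumors and were 6.37, 7.83 and 7.81 in pituitary tumors 6, 7 and 8. Kcnj8 ran from 5.88 through 6.63 to 8.43 and was 6.26, 7.00 and 8.28. Neither gene separated the sites. Differences were 0.06 for Abcc9 (95% interval -1.003 to 1.123, adjusted p = 0.961) and -0.28 for Kcnj8 (95% interval -1.51 to 0.95, adjusted p = 0.82). Of the 4 KATP subunit genes, 1 was therefore higher in pancreatic tumors.

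**Figure D2:**
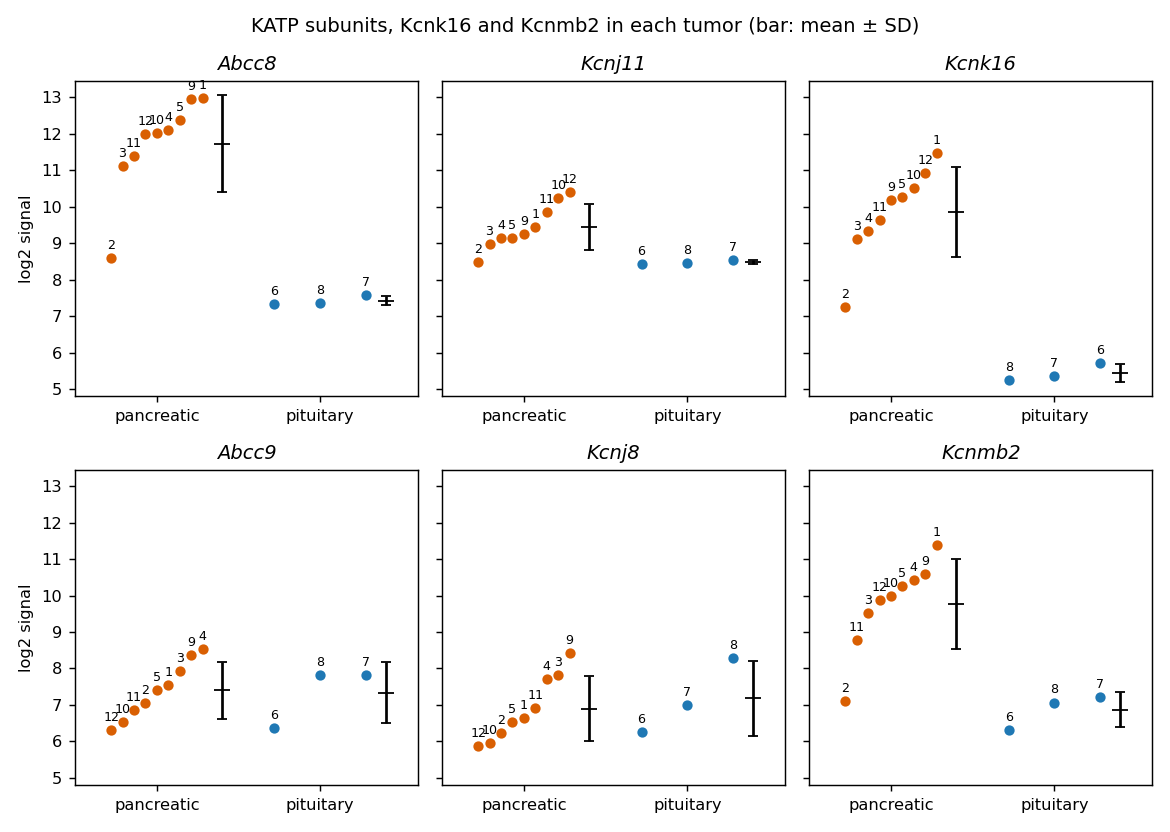
Log2 signals of the 4 KATP subunit genes and of Kcnk16 and Kcnmb2 in each tumor, with pancreatic tumors in orange, pituitary tumors in blue, tumor numbers above the points and bars for the mean ± SD. Abcc8, Kcnk16 and, except in pancreatic tumor 2, Kcnmb2 lie above the pituitary tumors, whereas Abcc9 and Kcnj8 overlap between sites. Pancreatic tumors 10 to 12 are highest for Kcnj11.

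Each KATP pair lies side by side in the mouse genome, Abcc8 with Kcnj11 on chromosome 7 and Abcc9 with Kcnj8 on chromosome 6, with 0 protein-coding genes between the partners in GRCm38.p6. Over the 9 pancreatic tumors, Abcc9 and Kcnj8 correlated at Pearson r = 0.893 and Spearman rho = 0.85 (exact permutation of pairings, two-sided, p = 0.00203 and 0.00607, adjusted over the 2 pairs 0.00407 and 0.0121). Leaving out the 2 tumors farthest from the Abcc9 median, tumors 4 and 12, gave r = 0.884 (adjusted exact permutation p = 0.0222) and rho = 0.786 (adjusted p = 0.096). The adjusted exact permutation p of rho was also above 0.05 without tumor 10 or tumor 12 (0.0559 each, rho = 0.786) and without tumors 10 to 12 (0.0583, rho = 0.829), while r was 0.872, 0.868 and 0.90. The summed level of the pericyte and smooth muscle list, given as the mean log2 signal of its 12 genes, ran from 6.50 to 8.28 in pancreatic tumors and from 6.61 to 7.02 in pituitary tumors, with 0 of 12 genes past the limma test between sites and 4 at an unadjusted p under 0.05. Its part in the relation of Abcc9 and Kcnj8 was not tested.

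Abcc8 and Kcnj11 correlated at r = 0.469 and rho = 0.283 over the same tumors (exact permutation p = 0.172 and 0.463, adjusted 0.172 and 0.463). Without tumors 1 and 2, the farthest from the Abcc8 median, r was -0.06, and without tumor 2 alone it was -0.09. Over the 6 tumors that remain without tumors 10 to 12, r was 0.978 and rho 1.0 (exact permutation p = 0.00278, adjusted 0.00556), a choice made after the data were seen. Any relation of these 2 genes over the pancreatic tumors thus rested on which tumors were included.

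Kcnk16, a potassium background channel with a narrow expression in pancreatic islets, had the largest difference of the genes higher in pancreatic tumors. Its signals there ran from 7.26 through a median of 10.19 to 11.47, and pituitary tumors 6, 7 and 8 had 5.73, 5.37 and 5.25. All pancreatic tumors were higher, tumor 2 being the lowest of them. Means were 9.86 ± 1.23 (SD, n = 9) and 5.45 ± 0.25 (SD, n = 3), a difference of 4.41 ± 0.68 (SE) or 21.2-fold (limma adjusted p = 0.00289). The call remained without each tumor in turn. In 2 of the 3 pituitary tumors the signal was at or below the array median, so that the size of the fold is uncertain, and the gene has a single probe set.

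Kcnmb2 encodes an accessory subunit of the calcium-activated BK channel that inactivates the current. Signals ran from 7.11 through 9.99 to 11.38 in pancreatic tumors and were 6.32, 7.22 and 7.07 in the pituitary tumors. Only pancreatic tumor 2 fell within the pituitary range. The difference was 2.90 ± 0.69 (SE, adjusted p = 0.0334), and a second probe set gave 2.84 (adjusted p = 0.0191). Without single tumors the call was lost in 8 of 12 cases, with the difference between 2.62 and 3.23 and the highest adjusted p at 0.174. The cases were those without pancreatic tumors 3, 4, 9, 10 or 12 and those without any of the 3 pituitary tumors.

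Kcne3, an accessory subunit known from epithelial chloride secretion, was not called although all pancreatic tumors were above all pituitary tumors. It ranged from 4.05 in tumor 5 to 8.86 in tumor 9 against 3.39, 3.46 and 3.25 in the pituitary tumors. The spread among pancreatic tumors was wide and the difference of 2.37 (95% interval 0.43 to 4.30) did not pass the test (adjusted p = 0.163).

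Some islet markers were higher in the same tumors as Abcc8, Kcnk16 and Kcnmb2. Of 6 measured alpha cell markers 1 was higher in pancreatic tumors, the glucagon gene Gcg. Of 8 beta cell markers 3 were higher, Ins2 by 5.07, Iapp by 2.37 and Pdx1 by 5.39, and of 5 other islet markers 2, Sst by 3.41 and Hhex by 6.66. The mean log2 signal of the alpha cell list ran from 7.22 to 8.52 in pancreatic tumors, against 5.64 to 7.06 at the pituitary site, that of the beta cell list from 6.86 to 9.17 against 5.12 to 5.48, and that of the other islet list from 9.15 to 12.09 against 7.05 to 7.36. The called markers Ins2, Iapp, Pdx1, Sst, Hhex and Gcg were lowest in tumor 2 among the pancreatic tumors, as were Abcc8, Kcnk16 and Kcnmb2. Uncalled markers were mixed. Ppy (7.16) and Ucn3 (3.73) were lowest in tumor 2, whereas Slc2a2 (11.46), Nkx6-1 (5.28), Ghrl (5.14) and Ttr (14.69) were highest in it. Tumor 11, not tumor 2, had the lowest beta cell and other islet scores, 6.86 and 9.15 against 7.52 and 9.24 in tumor 2. The part of islet cell content in the differences of these 3 genes was not tested.

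**Figure D3:**
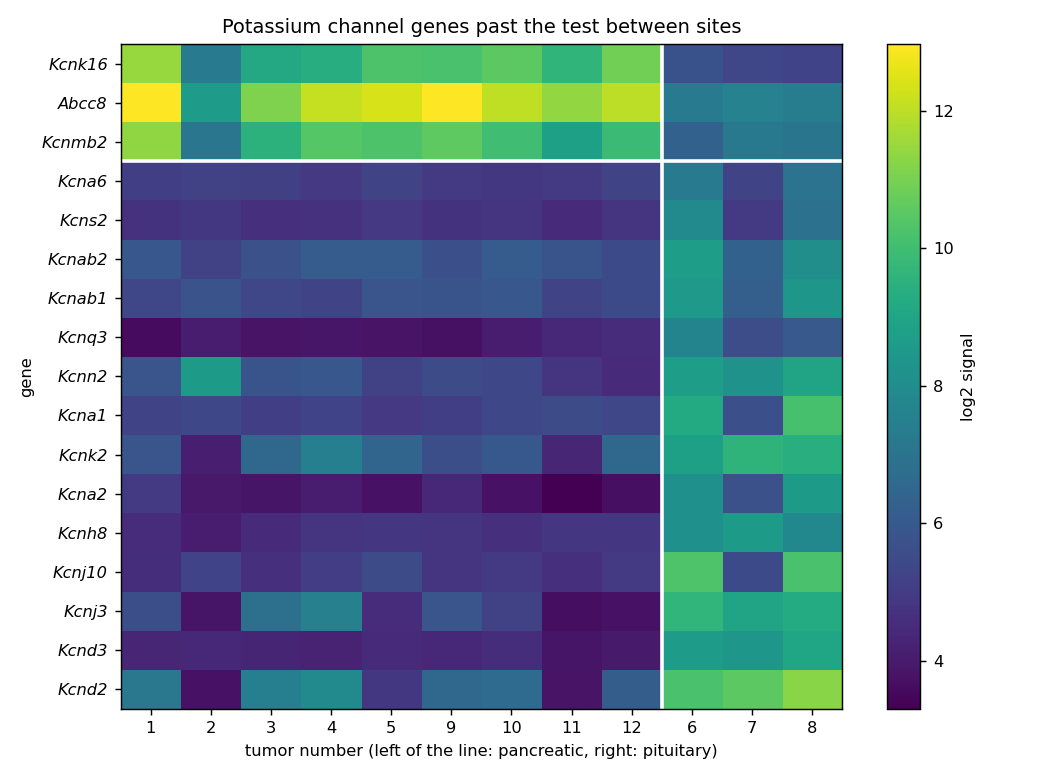
Log2 signals of the 17 genes past the test, one row per gene and one column per tumor, pancreatic tumors left and pituitary tumors right of the white line. Colours are to be compared along a row, since the brightness of different probe sets is not comparable. The upper 3 genes are bright at the left, the lower 14 at the right, where tumor 7 stays dark in 8 rows, and pancreatic tumor 2 differs from its neighbours in the rows of Abcc8, Kcnk16, Kcnmb2 and Kcnn2.

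Among the genes higher in pituitary tumors, the A-type channels came first. Kcnd3 encodes a fast inactivating A-type channel. It ran from 3.85 through a median of 4.34 to 4.56 in pancreatic tumors, below the array median in all 9, and was 8.63, 8.40 and 9.04 in pituitary tumors 6, 7 and 8. The groups lay far apart with little spread in either, at 4.29 ± 0.22 (SD, n = 9) and 8.69 ± 0.32 (SD, n = 3). The difference was -4.40 ± 0.17 (SE, limma adjusted p = 3.83e-08), or 21.2-fold on this probe set. Its 3 other probe sets did not pass the test, with differences of -0.08, 0.21 and -0.06. These 3 lay at or below the array median in all 9 pancreatic and all 3 pituitary tumors.

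Kcnd2, the closest relative of Kcnd3 and likewise of the A-type, had 10.21, 10.54 and 11.24 in the pituitary tumors and from 3.79 through 6.57 to 7.94 in the pancreatic tumors. The sites did not overlap, but pancreatic tumors varied by more than 4 on the log2 scale, with tumors 2, 11 and 5 at 3.79, 3.82 and 4.86. The difference was -4.61 ± 0.86 (SE, adjusted p = 0.00973), and 2 of its 3 other probe sets were called in the same direction. The call was lost without pituitary tumor 8 (adjusted p = 0.0647). The third gene of this family, Kcnd1, was not called, at 7.23 ± 0.26 (SD, n = 9) against 6.69 ± 0.12 (SD, n = 3) (adjusted p = 0.1).

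Kcnh8, a voltage-gated channel of the EAG-like branch, was the other gene with little spread at either site. Signals were 4.07 at the lowest, 4.75 at the median and 4.84 at the highest in pancreatic tumors, all below the array median, and 8.14, 8.58 and 7.80 in pituitary tumors. The difference was -3.55 ± 0.19 (SE, limma adjusted p = 6.84e-07), or 11.7-fold. Pituitary tumor 7 taken alone, a choice made after the data were seen, lay 4.12 above the pancreatic mean for Kcnd3 and 3.96 above it for Kcnh8.

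Kcnj3 encodes a G protein-gated inward rectifier that opens downstream of inhibitory hormone receptors. It had 9.67, 8.95 and 9.25 in pituitary tumors and 3.65, 5.15 and 7.52 as lowest, median and highest in pancreatic tumors, without overlap. The difference was -4.09 (95% interval -5.76 to -2.42, adjusted p = 0.0104). The adjusted p was above 0.05 without pituitary tumor 6 or 8, at 0.0523 to 0.0692. Of its relatives with the same gating, Kcnj5, Kcnj6 and Kcnj9 were not called, with differences of 0.28, 0.26 and 0.26. Further probe sets of Kcnj9 gave 0.10, -0.83 and -2.23 (adjusted p = 0.64, 0.0857 and 0.0668), the last of them at 7.18, 3.41 and 7.40 in pituitary tumors 6, 7 and 8 against 3.29 to 4.11 in pancreatic tumors, so that the direction for this gene is not settled.

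Kcnk2, a mechanically gated background channel, was 8.79, 9.60 and 9.36 in the pituitary tumors and ran from 4.11 through 5.96 to 7.47 in the pancreatic tumors. The difference of -3.37 ± 0.61 (SE, adjusted p = 0.00806) remained past the threshold without each tumor in turn. Kcnn2, a small conductance calcium-activated channel, was 8.67, 8.21 and 8.96 in pituitary tumors and between 4.45 and 5.93 in 8 pancreatic tumors. Pancreatic tumor 2, at 8.58, reached the pituitary level. The difference was -2.89 ± 0.66 (SE, adjusted p = 0.0275). Without single tumors it stayed between -3.24 and -2.72, while the adjusted p rose to 0.127 and 0.14 without pituitary tumors 6 and 8.

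A further 8 genes were high in pituitary tumor 6 and less so in tumor 7, and all but Kcnq3 were high in tumor 8 as well. Kcna1 and Kcna2 encode delayed rectifiers of axons. Kcna1 was 9.21, 5.65 and 10.16 in tumors 6, 7 and 8, against 4.90, 5.28 and 5.55 as lowest, median and highest of the pancreatic tumors (difference -3.08, adjusted p = 0.0217). Kcna2 was 8.15, 5.70 and 8.56, against 3.30, 3.86 and 4.94 (difference -3.50, adjusted p = 0.00162). Tumor 7 was above the pancreatic range for both, by less than 0.1 for Kcna1.

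Kcna6, of the same family, was 7.32, 5.29 and 7.00 against 4.88 to 5.29 (difference -1.46, adjusted p = 0.0238), so that tumor 7 equalled the highest pancreatic tumor to 2 decimals. Its 2 other probe sets differed by -0.15 and -0.14 (limma adjusted p = 0.558 and 0.673). The call was lost with the mean of its probe sets. The accessory subunits Kcnab1 and Kcnab2 bind channels of the Kcna family. Kcnab1 was 8.54, 6.24 and 8.40 against 5.29 to 5.93 (difference -2.16, adjusted p = 0.0079). Kcnab2 was 8.69, 6.32 and 8.08 against 5.16 to 6.13 (difference -1.92, adjusted p = 0.0162). The other Kcnab2 probe set differed by -0.04 (limma adjusted p = 0.902). For Kcnab1 and Kcnab2, tumor 7 stood just above the pancreatic tumors.

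Kcnj10, the inward rectifier by which astrocytes and related glia clear potassium, was 10.32, 5.46 and 10.20 in pituitary tumors 6, 7 and 8 and ran from 4.58 through 4.93 to 5.52 in pancreatic tumors. Tumor 7 lay within the pancreatic range (difference -3.73, adjusted p = 0.0185). Kcns2, a silent subunit that modifies other channels, was 7.91, 4.96 and 6.94 against 4.46 to 4.91 (difference -1.87, adjusted p = 0.0275). The other Kcns2 probe set differed by -0.44 (limma adjusted p = 0.287). Kcnq3, a subunit of the M-current that damps repetitive firing, was 7.68, 5.58 and 6.01 against 3.59 to 4.55 (difference -2.43, adjusted p = 0.00219), with all 3 pituitary tumors clear of the pancreatic range. Kcna2 and Kcnq3 kept their calls without each tumor in turn, whereas the calls of Kcna1, Kcna6, Kcnab1, Kcnab2, Kcnj10 and Kcns2 were lost without tumor 6 and without tumor 8.

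**Figure D4:**
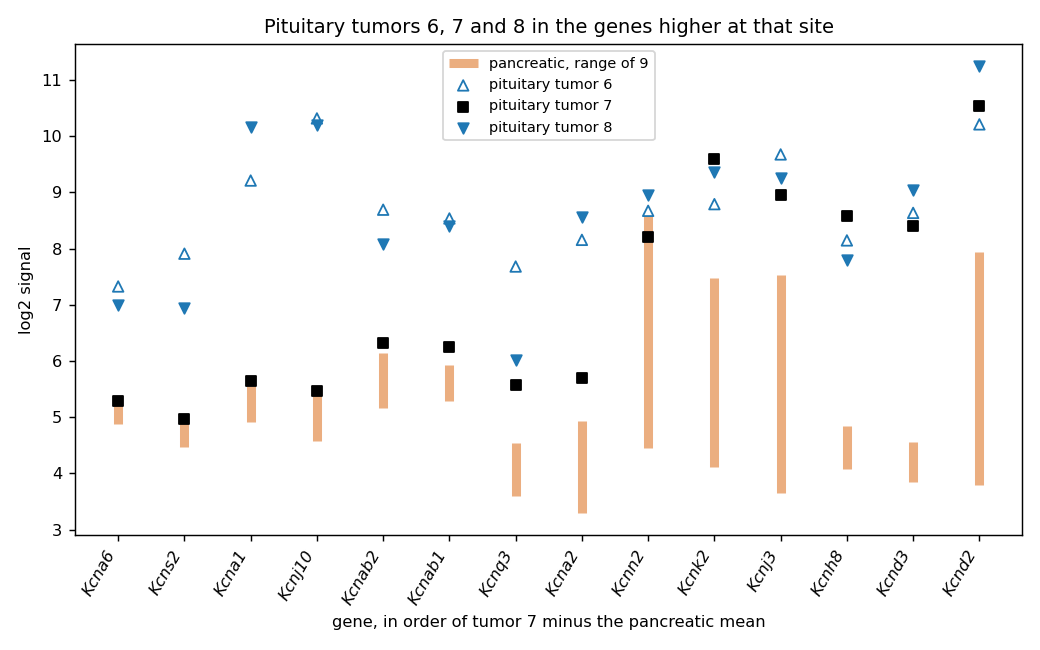
Log2 signals of the 14 genes higher in pituitary tumors, with the range of the 9 pancreatic tumors as a bar and pituitary tumors 6, 7 and 8 as separate symbols, ordered by tumor 7 minus the pancreatic mean. Tumor 7 lies within 1 of the pancreatic mean for the first 6 genes, 1.58 and 1.73 above it for Kcnq3 and Kcna2, and over 2 above it for the last 6.

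The 14 genes were sorted by tumor 7 minus the pancreatic mean and grouped at limits of 1 and 2. Kcnq3 and Kcna2, at 1.58 and 1.73, lay between these limits. For Kcnn2, Kcnk2, Kcnj3, Kcnh8, Kcnd3 and Kcnd2 all 3 pituitary tumors lay more than 2 above the pancreatic mean, and tumor 7 differed from the mean of tumors 6 and 8 by -0.60 to 0.61. For Kcna6, Kcns2, Kcna1, Kcnj10, Kcnab2 and Kcnab1 tumor 7 lay within 1 of the pancreatic mean and differed from the mean of tumors 6 and 8 by -1.87 to -4.8014. Marker lists set tumor 7 apart as well. The mean log2 signal of 9 astrocyte and glial markers was 10.55, 6.66 and 10.56 in tumors 6, 7 and 8 and 5.34 to 7.08 in pancreatic tumors, with 4 of 9 markers called higher in pituitary tumors. For 7 oligodendrocyte markers it was 8.49, 5.38 and 7.86 against 5.29 to 5.66, with 0 called by limma and 6 at an unadjusted p under 0.05. For 10 neuronal markers it was 10.48, 7.29 and 10.08 against 5.37 to 7.35, with 3 called. For 17 anterior pituitary markers the order was the other way, 7.96, 9.33 and 7.64, against 4.89 to 5.22. The part of neural tissue in the differences of these 14 genes was not tested.

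Calls were also counted by family, in groups of 3 to 15 genes that are too small to compare. Over the 86 genes 16.3% were higher in pituitary and 3.49% in pancreatic tumors, against 4.29% and 1.63% of all genes. Among the voltage-gated channels, 3 of 7 Kcna genes, 2 of 3 Kcnd genes, 1 of 6 Kcnh genes, 1 of 3 Kcnq genes, 1 of 9 genes of the silent subunit families Kcnf, Kcng, Kcns and Kcnv and 0 of 3 Kcnc genes were higher in pituitary tumors, and 0 of these in pancreatic tumors. The Kcnc count rests on 1 probe set per gene, and 2 further Kcnc1 probe sets were called higher in pituitary tumors. Among the inward rectifiers 2 of 15 were higher in pituitary tumors. Of 12 background channels (Kcnk), 1 was higher at each site. Of 8 calcium- and sodium-activated channels 1 was higher in pituitary tumors, and of 15 accessory subunits 1 was higher in pancreatic and 2 in pituitary tumors. None of the 3 noncoding transcripts passed the limma test, at unadjusted p under 0.05 for 1 of them.

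Genes with bright probe sets in both kinds of tumor were among those not called. Kcnk1, a background channel, averaged 9.98 ± 1.42 (SD, n = 9) in the pancreas and 10.89 ± 0.50 (SD, n = 3) at the pituitary gland, and the 95% interval of its difference ran from -2.62 to 0.80. Kcna5, a delayed rectifier, had 8.90 ± 1.35 and 8.66 ± 1.12, with an interval of -1.50 to 1.97. Kcnh2, the ether-a-go-go related channel that repolarizes the heart, had 8.63 ± 0.70 and 8.70 ± 0.36, with an interval of -0.95 to 0.81.

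Kcnma1, the pore of the BK channel, differed by -0.75 (95% interval -2.51 to 1.01), and Kcnmb4, its neuronal accessory subunit, by -1.39 (95% interval -3.16 to 0.39). Further Kcnma1 probe sets differed by -1.27, -0.92, -0.11 and -0.34 (limma adjusted p = 0.266, 0.135, 0.954 and 0.895). In those at -1.27 and -0.92 every pituitary tumor lay above every pancreatic tumor. Thus of the BK channel genes Kcnmb2 alone passed the test. Kcnq1, a voltage-gated channel of epithelia and heart, was 6.29 ± 0.39 (SD, n = 9) and 5.64 ± 0.48 (SD, n = 3), with limma adjusted p = 0.195. Kcng2, a silent subunit, differed by 0.06 (95% interval -0.28 to 0.41).

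Several genes varied among tumors of 1 site more than between sites. Kcnc2, a fast delayed rectifier, ran from 4.93 in tumor 11 and 4.99 in tumor 2 to 9.72 in tumor 1, and in pituitary tumors 6, 7 and 8 it was 9.49, 3.97 and 6.89. Its difference of 0.73 had a 95% interval of -1.91 to 3.36. Kcnip1 and Kcnip4 encode calcium-binding partners of the A-type channels. Kcnip1 ran from 4.74 to 9.60 in pancreatic tumors and was 6.91, 4.24 and 7.36 in pituitary tumors (difference 1.58, adjusted p = 0.404). Kcnip4 ran from 3.38 to 8.55 and was 9.02, 7.81 and 9.58 (difference -2.78, adjusted p = 0.181). Neither partner passed the test although both Kcnd2 and Kcnd3 did.

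Further probe sets of the same genes were compared. Of the 12 called genes with further probe sets, 8 had another one called in the same direction and 0 had one called in the opposite direction, and 5 called genes have a single probe set. For Kcna6, Kcnab2, Kcnd3 and Kcns2 no further probe set was called, and those probe sets lay at or below the array median in every tumor. For 4 genes that were not called, another probe set passed the test, all higher in pituitary tumors, and these are named because of that result. They are Kcna4 (-1.23, adjusted p = 0.0025), Kcnc1 (-3.81 and -1.02, adjusted p = 0.0297 and 0.00223), Kcnk10 (-2.44, adjusted p = 0.00285) and Kcnt1 (-0.88, adjusted p = 0.0346). The Kcnc1 probe set with the difference of -3.81 was at 8.945, 4.799 and 10.982 in tumors 6, 7 and 8, low in tumor 7 like the Kcna genes.

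Pancreatic tumor 2 was often an extreme in these genes, as it was over all genes. It had the lowest signal of the 9 pancreatic tumors for 23 of the 86 genes, or 26.7%, against 19.8% of all genes, and the highest for 10, or 11.6%, against 22.6%. In 13 genes it lay more than 2 below the median of the other 8 tumors, and in 3 more than 2 above it. Such gaps were not counted over all genes, so these counts cannot tell potassium channel genes from others. The lowest against that median were Kcnk1 at 6.29 against 10.43, Kcna5 at 5.39 against 9.37 and Kcnma1 at 4.72 against 8.46. Abcc8 was at 8.59 against 12.07, Kcnk16 at 7.26 against 10.23 and Kcnmb2 at 7.11 against 10.13. The 3 genes above it were Kcnn2 at 8.58 against 5.46, Kcnt2, a sodium-activated channel, at 5.96 against 3.25 and Kcnk5, an acid-sensitive background channel of epithelia, at 7.79 against 5.12.

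**Figure D5:**
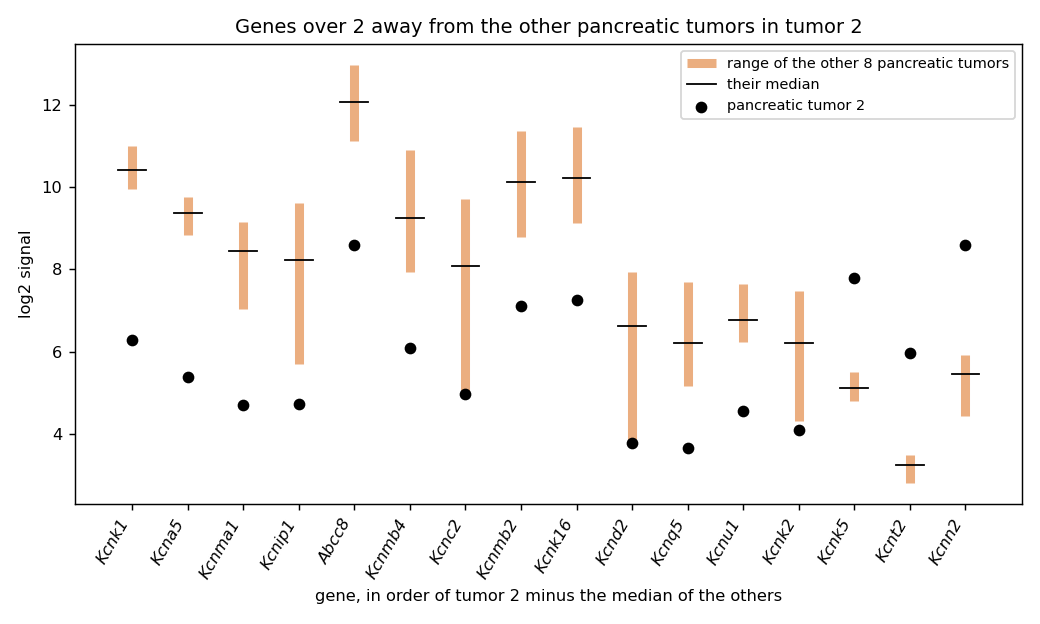
The 16 genes for which pancreatic tumor 2 (black) lay more than 2 on the log2 scale from the median (line) of the other 8 pancreatic tumors, whose range is the bar, in order of that gap. Tumor 2 is below the median in the first 13 genes and above the whole range of the others in Kcnk5, Kcnt2 and Kcnn2. Such gaps were not counted over all genes.

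In pancreatic tumor 2 the mean log2 signal of 11 hepatocyte genes, a list added after the data were seen, was 13.99. Pancreatic tumors 3 and 4 had 11.18 and 11.48, the other pancreatic tumors 5.44 to 7.71 and pituitary tumors 4.69 to 5.54, and 0 of the 11 genes passed the limma test between sites, with 3 at an unadjusted p under 0.05. Among the 9 pancreatic tumors, tumor 2 was also lowest in the scores of KATP subunits (7.60), accessory proteins and HCN channels (5.68), glucose sensing genes (6.21), the sodium pump (6.91), alpha cells (7.22), acinar cells (5.97), ducts (5.60), neurons (5.37), pericytes (6.50) and endothelium (5.60). The scores of beta cells and of other islet cells were lowest in tumor 11. Abcc8 was 11.12 and 12.11 in tumors 3 and 4, whose scores of 10 acinar markers, 10.99 and 10.32, were the highest. The part of liver tissue in the values of tumor 2 was not tested. Without tumor 2, 4 potassium channel genes were higher in pancreatic tumors (Kcnd1 in addition) and the same 14 in pituitary tumors. Over all genes the shares were then 2.76% and 5.36%.

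Lists of genes that act with potassium channels were read against the 5.92% of all genes called in either direction. Of 12 measured accessory proteins and HCN channels from other gene families, 0 passed the limma test in either direction, 4 of them with an unadjusted p under 0.05, and their median difference was -0.35 against 0.04 over all genes. Of 17 genes of glucose sensing and stimulus-secretion coupling, 1 was higher in pancreatic tumors and 0 in pituitary tumors, with a median difference of 0.26. This was Trpm5, a calcium-activated cation channel, with a difference of 1.18 (adjusted p = 0.0486) and signals at or below the array median in 6 of 9 pancreatic tumors. Of 10 sodium pump genes, 1 was higher at each site, with a median difference of -0.32. The regulator Fxyd3 was higher in pancreatic tumors by 1.73 (adjusted p = 0.0381). The glial pump subunit Atp1b2 was higher in pituitary tumors, at 10.41, 7.63 and 12.01 in tumors 6, 7 and 8 against 5.92 to 7.76 in pancreatic tumors (difference -3.31, adjusted p = 0.0174), and tumor 7 was again within the pancreatic range.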

How the data were processed

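Total RNA of 12 tumors was hybridized to Affymetrix MG-430_2.0 arrays, 1 array per tumor. The deposited values are log2 signals, which the authors normalized between arrays, with 1 value for each probe set. The methods name Partek Genomics Suite, and RMA for further work, and do not state which gave these values. They were used as deposited, and all columns matched a labelled tumor. With arrays, their number limits the precision.

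Of 45101 probe sets, 64 controls were left out. Of the 45037 tested, 34945 carry 1 symbol in the platform annotation, 932 several and 9160 none there. All 86 potassium channel genes matched RefSeq by Entrez identifier, and 0 symbols changed. Sites were compared with lmFit and eBayes of limma 3.58.1 (R 4.3.3), two-sided, with Benjamini-Hochberg adjustment over all tested probe sets and a threshold of 0.05. The fit was tested on simulated data. Differences are pancreatic minus pituitary. Correlations used exact permutation in Python 3.11.15. Samples were separate tumors by their labels.

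Members and lists were chosen with earlier results of these data known. Named are the KATP subunits, Kcnd3, every gene past the threshold, the brightest gene of each family, the 5 with the widest range and those with a tumor apart, and up to 4 genes per list, those with the largest difference past the threshold. Of the lists not described further, duct markers had 1 of 5 genes higher in pancreatic tumors, acinar markers 1 of 10, leukocyte markers 0 of 8 and endothelium markers 0 of 8 (3 at an unadjusted p under 0.05, against 0 of the leukocyte markers). Alternatives were another normalization (quantile, median centring), variance models, array weights, a filter on dim probe sets, the mean of a gene's probe sets, and each tumor left out.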

Additional observations from a re-analysis of the deposited data

Results flagged for a closer look

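In the 9 pancreatic tumors, the gap between an extreme tumor and the next, divided by the range, was above Dixon's 95% critical value for 9 of the 71 potassium channel genes whose highest signal exceeded the array median. Without this filter 12 of the 86 genes had such a tumor, with Kcna3, Kcnh5 and Kcnj15 in addition. Kcnk5 exceeded the array median in tumor 2 alone and so passed the filter by the value that stands apart. Chance flags about 1 in 20 groups, and in 8 of the 9 genes the tumor was number 2. Over all genes, tumor 2 was the lowest of the 9 tumors in 19.8% and the highest in 22.6%. Dixon's ratio was not computed over all genes, so the count cannot tell potassium channel genes from others.

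Tumor 2 stood apart at the low end in Kcna5 (5.39), Kcnk1 (6.29), Kcnma1 (4.72), Kcnu1 (4.57) and Abcc8 (8.59). Kcnu1, a channel of sperm, was between 6.23 and 7.64 in the other 8 tumors. Tumor 2 stood apart at the high end in Kcnk5 (7.79), Kcnn2 (8.58) and Kcnt2 (5.96). Its hepatocyte score was 13.99, the highest of the 12 tumors. The remaining gene was Kcnj13, an inward rectifier of epithelia, in which tumor 4 was at 7.96 and the next tumor at 5.95.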

How the results depend on the processing

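No paired analysis was possible because the labels do not tell which tumors share a mouse. Each gene count is given as higher in pancreatic and then in pituitary tumors, 3 and 14 as reported. With array weights the counts were 6 and 21, beside 5.28% and 8.77% of all genes. Among probe sets above the median, which leaves 48 of the genes, they were 3 and 8, beside 2.37% and 4.66% of all genes tested. Kcnd3 and Kcnh8 were among those not tested. Without single tumors the counts ran from 2 to 4 and from 5 to 18, beside 0.632% to 2.76% and 1.84% to 5.45% of all genes. Without pancreatic tumors 10 to 12 the counts were 1 and 5, beside 0.698% and 1.64% of all genes, and Abcc8 differed by 4.26 (limma adjusted p = 0.0552). Without pituitary tumors 6 and 8, Abcc8 differed by 4.15. This leaves a lone pituitary tumor whose spread cannot be measured, so no counts are given. The last 2 alternatives were chosen after seeing the data. Quantile normalization gave 4 and 14, the unmoderated test 2 and 11, and the mean of all probe sets 3 and 17. The shares of all genes were 2.04% and 3.89%, 1.21% and 2.7%, and 2.22% and 5.04%. In these settings 0 calls changed sign. Kcng2 turned to -0.15 without pituitary tumor 7 and Kcnj13 to 0.10 without pituitary tumor 8, within ranges of -0.15 to 0.19 and -2.20 to 0.10 without single tumors, and Kcnj13 was 0.82 without tumors 6 and 8, all uncalled. Without single tumors Abcc8 stayed at 4.14 to 4.69, Kcnj11 at 0.84 to 1.08 and Kcnd3 at -4.55 to -4.23. The correlation of Abcc8 and Kcnj11 turned to -0.0612 without the 2 farthest tumors, ran from -0.0948 to 0.5443 without single tumors and was 0.98 without tumors 10 to 12. The cause was not tested. With 3 pituitary tumors and no detection calls, small differences and dim genes could not be judged.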
